A study of Arabidopsis thaliana with 16 samples.

Results

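The transcripts described here are those that were bright in shoots and low in roots of 21-day wild-type (WT) seedlings of Arabidopsis thaliana. They were selected on measured values: a probe set, the group of short probes that reports 1 transcript on the array, belonged to the set when its mean signal over the 2 WT shoot arrays was above 1000 and its mean over the 2 WT root arrays was below 60. This gave 124 of the 22746 probe sets that are no controls, with 2 probe sets left out by the rule. Of the 124, 69 are paired with a single gene, and these stand for 68 genes because AT1G51110 has 2 probe sets. A further 3 are paired with several genes and 52 are not listed in the annotation used, and these keep their probe set number here.

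The 8 groups had 2 one-colour Affymetrix ATH1 arrays each. In the first experiment, WT plants spent 4 weeks in hydroponic control medium and then 3 weeks in zinc-deficient (-Zn) or control medium, and shoots and roots were taken at 7 weeks. In the second, hma2 hma4 double mutants and WT seedlings were kept on agar (control medium) for 7 days, moved to vertical plates of it for 14 days, and were taken at 21 days. HMA2 and HMA4 are pumps that load zinc into the root xylem, the labels do not give the alleles, and no value of either gene was used here to check the genotype. The labels do not say whether the arrays of a group came from separate plants or cultures, so a p-value here covers only the spread between arrays, which may be technical.

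Leaves hold the chloroplasts, the cuticle and the stomata of the plant, and genes for light capture, carbon fixation, wax and stomata are known to be read mostly in green tissue. Zinc is a cofactor of many leaf enzymes, and plants short of zinc are known to have small, pale leaves. The array compares whole organs, in which fewer cells of a type and less RNA per cell cannot be told apart.

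In the arrays that chose them, the members had mean signals between 1024 and 17552 in WT shoots and between 1.52 and 59.0 in WT roots. The brightest with a gene name in WT shoots was AT2G10940, a relative of the lipid transfer proteins, at 12007 and 11573, beside 65.6 and 50.7 in WT roots. PIFI, a chloroplast protein needed for the rise in chlorophyll fluorescence after a light pulse, had 10847 and 11987 in WT shoots and 44.8 and 38.2 in WT roots. Just inside the shoot threshold lay AT1G27480, with a mean of 1024, and just outside it lay AT1G67860, with a mean of 988 in WT shoots and 5.41 in WT roots. Just inside the root threshold lay AT2G10940, with a mean of 58.1, and just outside it lay AT1G73110 with 60.1 and the plastid gene psbA with 61.3. These values define the set and are no result.

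The named members were sorted by known role after their values had been seen, so the groups below are a description. There were 6 probe sets for the chloroplast NDH complex and electron flow around photosystem I. A further 20 were for metabolic enzymes and transporters, 11 for cell-surface and secreted proteins and 11 for defence proteins and receptors. The remaining 21 were for other or undescribed genes. Among the 20 are both probe sets of AT1G51110, whose fibrillin family name does not by itself make it an enzyme or transporter. Few textbook photosynthesis genes could be looked up, since a probe set of their own was annotated for 3 of 21 loci on the list of light harvesting, 2 of 12 of photosystem I, 2 of 11 of photosystem II, 1 of 12 of electron transport and 3 of 20 of the Calvin cycle. None of those is a member, and their mean WT root signals were above the threshold, as with RCA, the activase of the carbon-fixing enzyme Rubisco, which had a mean of 19120 in WT shoots and 336 in WT roots. Pairs of members lay close together on a chromosome in 3 cases, of which AT2G29290 and AT2G29310, both of the tropinone reductase-like family, were nearest, with 1 coding gene between them in RefSeq TAIR10.1.

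**Figure D1:**
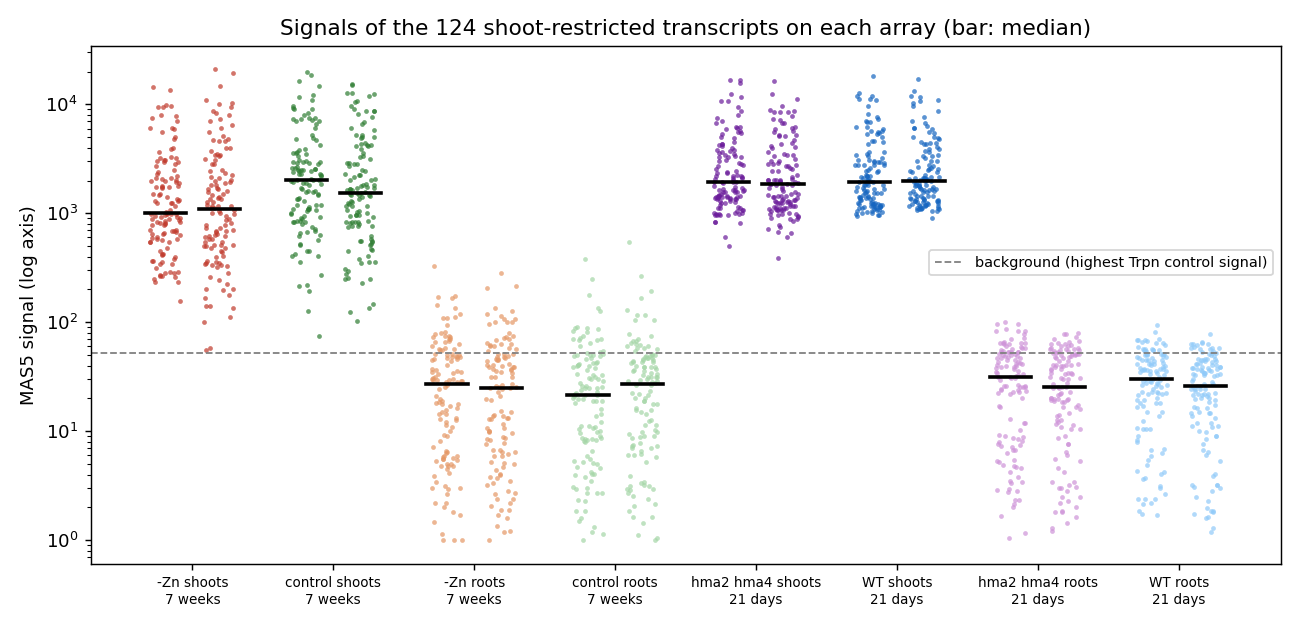
Signals of the 124 members on each of the 16 arrays, on a log axis, with 1 point per probe set, a black bar at the median of the array and a dashed line at the background of 52.2. In shoots the median was 999 and 1095 on the -Zn arrays, against 2004.5 and 1544 on the control arrays, while the medians on all root arrays lay below the background line.

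The first question was whether the members kept to the shoot in plants that had no part in the choice. In 7-week control plants, 124 of 124 were higher in shoots than in roots (limma, Benjamini-Hochberg adjusted p under 0.05, a call made for 19.8 percent of all 17059 probe sets tested). In -Zn plants 123 of 124 were higher in shoots, where the call covers 18.4 percent of all probe sets. In hma2 hma4 seedlings 124 of 124 were higher in shoots, against a background of 20.6 percent called higher in shoots. All 124 passed the filter on low values, which takes the mean over shoots and roots together, through their shoot signals.

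Most members were not above background in roots. A background of 52.2, the highest signal of the bacterial Trpn control probe sets on any array, was not exceeded on either root array by 87 members in -Zn plants, 93 in control plants and 86 in hma2 hma4 seedlings. For these, shoot over root can only be given as a lower bound, with a median of at least 17.1-fold in -Zn plants, at least 34.1-fold in control plants and at least 35.6-fold in hma2 hma4 seedlings. Over all 124 members, with root signals under the background raised to it, the median log2 difference was at least 4.18 in -Zn plants, 4.91 in control plants and 5.15 in hma2 hma4 seedlings. The fitted medians, 5.26, 5.81 and 6.04, rest on root signals under the background and on the constant added before log2 was taken, and are no bound. The widest bound in -Zn plants belonged to AT5G03350, a legume-type lectin, at least 308-fold, where its root signals were 3.88 and 3.52. In the other direction, the unnamed probe set 267265_at, singled out after its values were seen, was the member whose shoots and roots were not told apart under -Zn. It had 158 and 57.9 in -Zn shoots and 143 and 38.8 in -Zn roots (log2 difference 0.31, adjusted p 0.734 by limma), and its shoot and root arrays overlapped. In control plants it had 451 and 147 in shoots and 20.0 and 14.5 in roots.

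Read as a strict rule, the choice held less often at 7 weeks. A shoot mean above 1000 together with a root mean below 60 was met by 49 members in -Zn plants, by 74 in 7-week control plants and by 102 in hma2 hma4 seedlings. The shoot side gave way more often than the root side: 65 members were above 1000 in -Zn shoots and 89 in control shoots, while 102 were below 60 in -Zn roots and 109 in control roots. The 7-week control shoots were below the 21-day WT shoots for 74 of 124 members, with a median log2 difference of -0.34. The 21-day arrays are those that selected the members for high values. This selection, age, culture, experiment and RNA quality, for which actin ratios are given below, cannot be told apart in that comparison. Both probe sets of AT1G51110, a member of the plastid lipid-associated fibrillin family, were among the lowest: 567 and 125 and, on the second probe set, 666 and 134 in 7-week control shoots, against 2934 and 2793 and 1382 and 1613 in 21-day WT shoots. ATSPS4F, a sucrose phosphate synthase that makes sucrose for export from leaves, was lower as well, at 421 and 307 in 7-week control shoots and 1254 and 1572 in 21-day WT shoots. PDF1.2b, an antimicrobial defensin, was higher at 7 weeks, with 19940.4 and 12651 in control shoots and 5733 and 4347 in 21-day WT shoots, and its probe set may also read near-identical defensin genes.

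Under zinc deficiency the shoot-restricted set was lower as a body in shoots. Of 124 members, 102 had a negative log2 change, -Zn minus control, and 22 a positive one. The median log2 change was -0.70, against -0.02 for all probe sets tested and -0.16 for the other 3288 probe sets above 1000 in 21-day WT shoots. Together the members made up 1.73 and 1.82 percent of the array signal in -Zn shoots, against 2.44 and 2.19 percent in control shoots, so the groups did not overlap. In -Zn shoots 39 members were more than 1 log2 unit lower and 6 more than 1 unit higher. Of all 17059 probe sets tested, 653 were that much lower and 1091 that much higher.

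Single calls were few. By limma with Benjamini-Hochberg adjustment over 17059 probe sets, 2 members fell in -Zn shoots, where 0.152 percent of all probe sets were called lower, and 0 rose, where 0.768 percent were called higher. Without adjustment, p by limma was under 0.05 for 41 members on the lower side and 5 on the higher side. Over all 17059 probe sets the same counts were 1237 and 1612. Counted by arrays, both -Zn signals lay below both control signals for 69 members, against 21.0 percent of all probe sets, and above them for 13, against 19.9 percent. The remaining 42 overlapped. The median was between -0.89 and -0.53 when each -Zn array was set against each control array alone, and between 91 and 97 members were lower in each of these pairs.

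**Figure D2:**
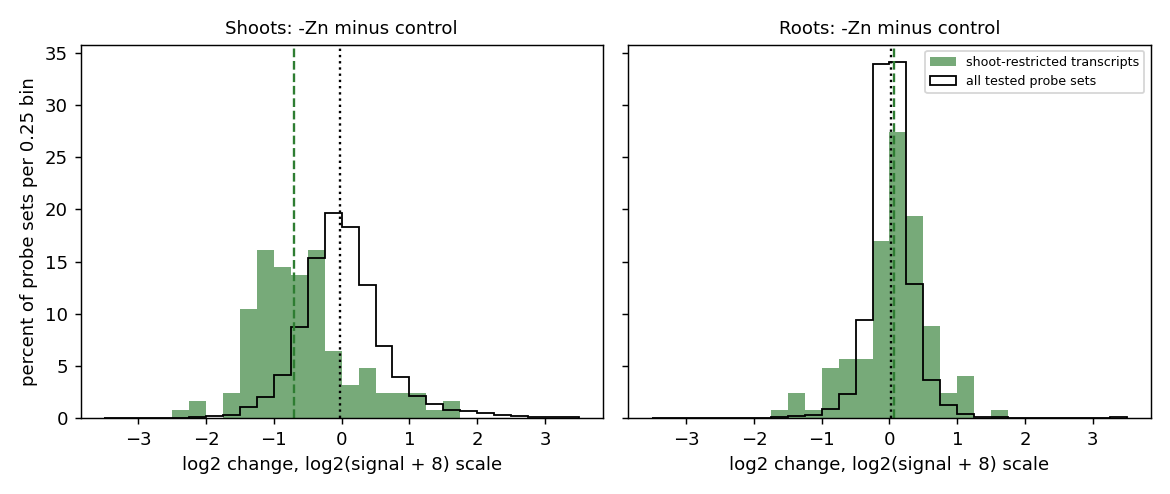
Distribution of the log2 change, -Zn minus control, in shoots (left) and roots (right), as the percent of probe sets per bin, for the 124 members (green) and all 17059 probe sets tested (black outline), with dashed and dotted lines at the medians. In shoots the member median lay at -0.70 and the median of all probe sets at -0.02, while in roots both were near 0.

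The named member that fell was AT1G66100, a thionin, one of the small cysteine-rich peptides that act against microbes. It had 394 and 225 in -Zn shoots, against 2039 and 961 in control shoots. Both -Zn arrays lay below both control arrays, which themselves differed widely. The log2 change was -2.20 (SE 0.40, adjusted p 0.0490 by limma). The other was 253971_at, which has no gene name here and is named because it is the remaining call, with 1031 and 1045 in -Zn shoots, against 5275 and 3922 in control shoots (log2 change -2.12, SE 0.28, adjusted p 0.0247 by limma). Its -Zn arrays were nearly equal and far below both control arrays. Both calls depended on the setting, and over all alternatives the adjusted p ran between 0.0268 and 0.243 for AT1G66100 and between 0.00639 and 0.152 for 253971_at. Neither call held in every setting. With 1 shoot array left out, the log2 change ran between -2.74 and -1.66 for AT1G66100 and between -2.34 and -1.91 for 253971_at.

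Other large drops in -Zn shoots missed the threshold after adjustment, and their values are given without a call. COR15B, a chloroplast protein that protects membranes in the cold, had 3618 and 4632 in -Zn shoots, against 16456 and 10834 in control shoots (log2 change -1.70, adjusted p 0.0641 by limma). STOMAGEN, a peptide secreted by the inner leaf tissue that raises the number of stomata, had 361 and 481 in -Zn shoots, against 1089.7 and 1169 in control shoots (log2 change -1.42, adjusted p 0.0742). In both genes the -Zn arrays lay well below the control arrays, with no overlap. STOMAGEN had been at 1116 and 1278 in hma2 hma4 shoots and 1219 and 1316 in 21-day WT shoots.

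**Figure D3:**
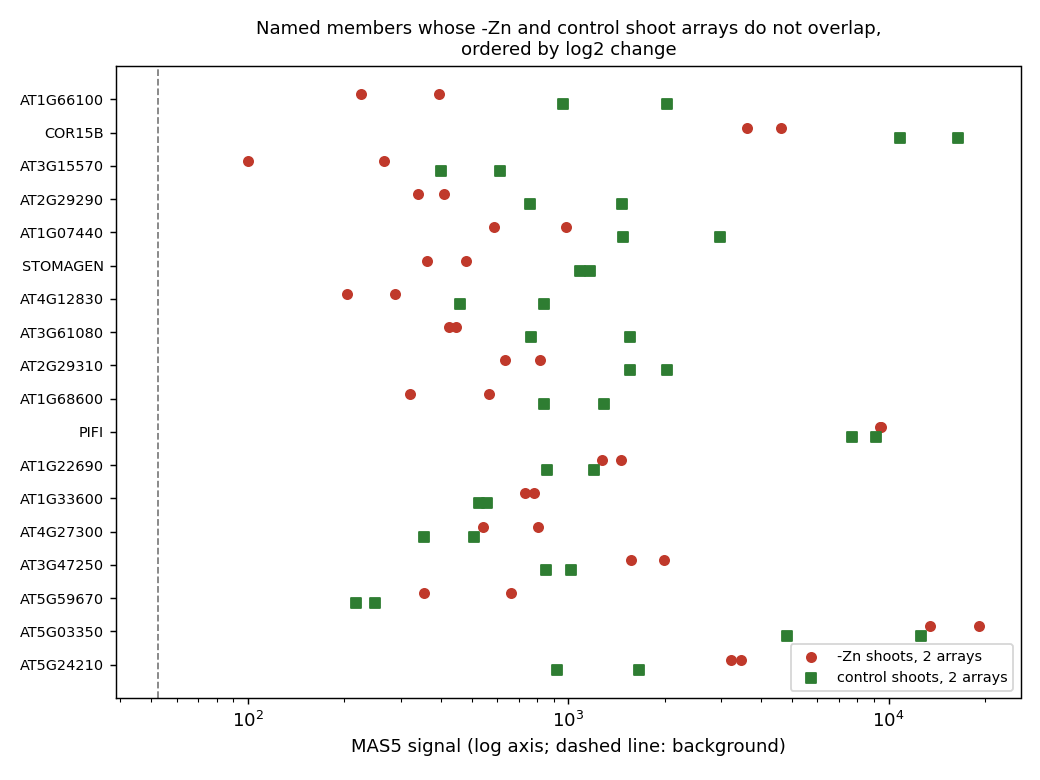
Signals on the 2 -Zn (circles) and 2 control (squares) shoot arrays for 18 named members, on a log axis with the background as a dashed line. Among named members whose groups did not overlap, these are the 10 largest of 38 falls and all 8 rises. The 10 at the top were lower in -Zn shoots and the 8 at the bottom higher, and of all 18 only AT1G66100 passed the adjusted threshold.

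All 20 probe sets for metabolic enzymes and transporters had a negative change in -Zn shoots, with a median of -0.97. Of these 15 lay below control shoots without overlap, against 21.0 percent of all probe sets, but 0 passed the test, against 0.152 percent called lower. The sorting was made after the values were seen, and AT5G24210, of a lipase family and higher in -Zn shoots, was placed with defence. Both probe sets of AT1G51110, of the fibrillin family, were counted among the 20. Without control replicate 1 both had a positive change, as given below. These counts are therefore a description and no support for a trait of enzymes. The 3 members of the tropinone reductase-like family, enzymes that reduce small carbonyl compounds, were alike. AT2G29290 had 411 and 340.3 in -Zn shoots, against 1471 and 758 in control shoots (log2 change -1.48). AT1G07440 had 987 and 585 in -Zn shoots, against 2971 and 1481 in control shoots (log2 change -1.46), and AT2G29310 had 637 and 814 in -Zn shoots, against 2030.0 and 1556 in control shoots (log2 change -1.29). None of the 3 overlapped between the groups, and their adjusted p in this order was 0.0962, 0.127 and 0.0809 by limma. Members of 1 family can share probe matches, and this was not tested.

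Further enzymes and transporters are given as examples picked after their values were seen. AT3G48420, a phosphatase that clears an inhibitor of Rubisco, had 896 and 705 in -Zn shoots, against 2554 and 1400.0 in control shoots (log2 change -1.24). LrgB, the glycolate and glycerate transporter of the chloroplast envelope used in photorespiration, had 3940.0 and 3942 in -Zn shoots, against 7013 and 6067 in control shoots (log2 change -0.73). The -Zn arrays of LrgB were nearly equal and both lay below the control arrays. AT3G61080, of the fructosamine kinase family, had 425 and 446 in -Zn shoots, against 1555 and 767 in control shoots. AT1G68600, of the malate channel family, had 565 and 321 in -Zn shoots, against 1294 and 840.3 in control shoots. Neither of these overlapped, and adjusted p was 0.135 and 0.172 by limma.

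The NDH complex returns electrons to the electron carriers of the thylakoid membrane. NdhL, one of its subunits, had 1994 and 2820.1 in -Zn shoots, against 6054 and 4131 in control shoots, and NdhN, another subunit, had 1300.0 and 1081 in -Zn shoots, against 2282 and 2033 in control shoots. CRR42, which is needed to assemble the complex, had 584 and 734 in -Zn shoots, against 1597 and 1221 in control shoots. For these 3 genes, AT2G04039 and the PAM68-like gene AT5G52780, the -Zn arrays lay below the control arrays, as they did for 21.0 percent of all probe sets. PIFI went the other way, with 9438 and 9477 in -Zn shoots, against 9154 and 7677 in control shoots (log2 change 0.17). This was a small difference with no overlap, and 19.9 percent of all probe sets lay above control without overlap. The median of the 6 was -0.87, and the lowest adjusted p was 0.172 by limma.

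Among the 11 cell-surface and secreted proteins 8 changes were negative and 3 positive, with a median of -0.27. STOMAGEN was the lowest. AT2G10940 had 6106 and 4608 in -Zn shoots, against 11593 and 10519 in control shoots (log2 change -1.06), and AT1G29670, of the GDSL lipase family, had 2110.3 and 1823 in -Zn shoots, against 4276 and 4379.5 in control shoots (log2 change -1.14). AT4G13840 (CER26), which lengthens the chains of leaf wax, was a little below control on both arrays, with 1779 and 1938 in -Zn shoots, against 2035 and 2456 in control shoots. AT1G22690, of the gibberellin-regulated GASA peptide family, was above control on both arrays, with 1458 and 1271 in -Zn shoots, against 1201 and 856 in control shoots.

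Of the 11 defence proteins and receptors, 8 had a positive and 3 a negative change, with a median of 0.62. Both -Zn arrays lay above both control arrays for 6, against 19.9 percent of all probe sets, and 0 were called higher, against 0.768 percent. The group was sorted after the values were seen, so these counts are a description. The family names of AT5G24210 and AT3G47250, given below, do not by themselves make them defence proteins or receptors. The 1 member called was AT1G66100, which fell. AT5G24210, of the class 3 lipase family, had 3229 and 3470.2 in -Zn shoots, against 924 and 1659 in control shoots (log2 change 1.43, adjusted p 0.365 by limma). AT5G03350, the lectin named above, had 13457 and 19217 in -Zn shoots, against 4830.2 and 12613 in control shoots (log2 change 1.04, adjusted p 0.265). Both -Zn arrays lay above both control arrays in these genes, but the control arrays of the lectin were far apart. The leucine-rich repeat receptor kinase AT5G59670 had 663 and 355 in -Zn shoots, against 217 and 249 in control shoots (log2 change 1.04). AT3G47250, of the DUF247 family, had 1997 and 1575 in -Zn shoots, against 853 and 1023 in control shoots (log2 change 0.92). The defensin PDF1.2b, with 4819 and 14645 in -Zn shoots and 19940.4 and 12651 in control shoots, overlapped.

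**Figure D4:**
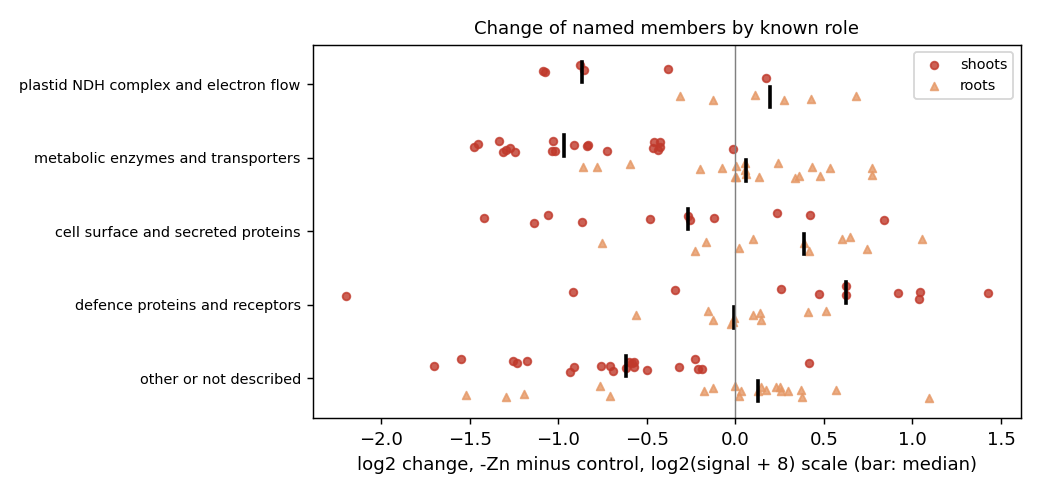
Log2 change, -Zn minus control, of the named members by role, with circles for shoots, triangles for roots and black bars at the medians. The shoot medians were -0.87, -0.97, -0.27, 0.62 and -0.62 from top to bottom, and the root medians lay between -0.01 and 0.39.

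Genes of photosynthesis outside the set had the same sign in -Zn shoots and 0 were called by limma. On gene lists of these pathways, every gene with a probe set of its own had a negative change: 3 of light harvesting (median -0.28), 2 of photosystem I (-0.37), 2 of photosystem II (-0.33), 1 of electron transport (-0.51) and 3 of the Calvin cycle (-0.66). Chlorophyll synthesis had 3 of 3 negative with a median of -0.66, and photorespiration 4 of 4 with a median of -0.85. SBPASE, an enzyme of the Calvin cycle, had a mean of 5096 in -Zn shoots and 9474 in control shoots. The member median of -0.70 lay within the range of these lists.

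Other values moved with the same arrays. Summed over 4 root marker genes, the signal was 2824 to 3116 in -Zn shoots, against 216 to 684 in control shoots, and 13494 to 16113 in -Zn roots, against 16546 to 16670 in control roots. In shoots it came mostly from F6'H1, a coumarin enzyme, with a mean of 2275 in -Zn shoots and 147 in control shoots (adjusted p 0.0521 by limma). PYK10, a glucosidase, had a mean of 563 in -Zn shoots and 125 in control shoots (adjusted p 0.337 by limma). PYK10 also had a mean of 4146 in 21-day WT shoots, so its signal is not confined to roots. Of the other root markers, EXPA7 fell by a log2 change of -1.35 and EXPA18 hardly moved, at 0.17 (adjusted p 0.878 by limma). Actin signal at the 3' end over that at the 5' end is a sign of RNA quality. This ratio was 8.57 and 1.74 on the -Zn shoot arrays, against 2.70 and 2.36 on the control arrays. All 21-day arrays had higher ratios, between 17.3 and 30.3. On the WT arrays that chose the set it was 23.7 and 24.2 in shoots and 24.7 and 30.3 in roots. The part of either in the result was not tested. Without -Zn replicate 1, the array with the high ratio, the member median was -0.75, and without replicate 2 it was -0.62. The 2 control shoot arrays differed too, since 88 members were higher on replicate 1 than on replicate 2, and the median was -0.52 when control replicate 1 was left out and -0.93 when control replicate 2 was.

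In roots the set stayed low under zinc deficiency. Of 124 members 83 were at or below background on all 4 root arrays of 7-week plants, 28 exceeded it on some and 13 on all. By limma 0 members were called in either direction, where 0.106 percent of all probe sets were called. Without adjustment 7 members were higher and 5 lower at p under 0.05 by limma, against 257 higher and 137 lower of all 17059 probe sets. The members entered this test through their shoot signals. When the root arrays were fitted alone, 31 passed the filter on low values, and 0 of these 31 were called. For the 83 members not above background, these counts say nothing about a change, and the same holds for much of the median log2 change of 0.06. Both -Zn root arrays lay below both control root arrays for 21 members, against 15.1 percent of all probe sets, and above them for 27, against 17.6 percent, counts that include signals under the background. The set made up 0.0326 and 0.0314 percent of the array signal in -Zn roots, against 0.0286 and 0.0320 percent in control roots, and these overlapped.

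The brightest named member in 7-week roots was AT1G67865, whose function is not described here, with 135 and 282 in -Zn roots, against 382 and 547 in control roots. The -Zn arrays were below the control arrays, by a log2 change of -1.19 (adjusted p 1.00 by limma). In 21-day WT roots the same probe set had 22.4 and 21.3. The GDSL lipase AT1G29670 had 75.0 and 214 in -Zn roots and 250.5 and 194 in control roots, which overlapped. AT2G25200 overlapped too, with 169 and 134 in -Zn roots and 136 and 130.3 in control roots. AT2G29310 was above control in roots and below it in shoots, with 118 and 101 in -Zn roots, against 74.7 and 49.5 in control roots (log2 change 0.77, p 0.0283 before and 1.00 after adjustment by limma). The unnamed 265837_at, picked after its values were seen, had 113 and 114 in -Zn roots, against 32.7 and 57.1 in control roots, so that it was above background on both -Zn arrays and on 1 control array.

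**Figure D5:**
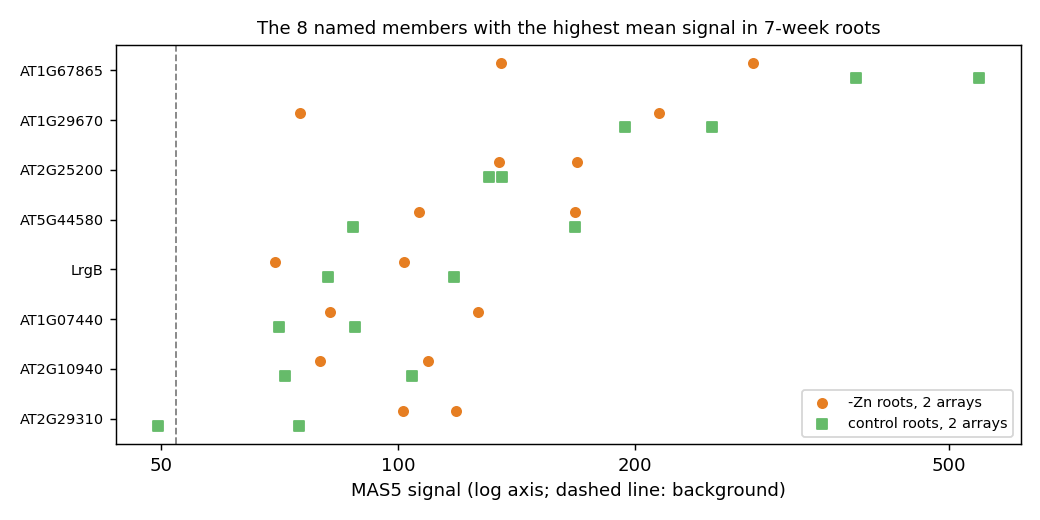
Signals of the 8 named members with the highest mean in 7-week roots, on the 2 -Zn (circles) and 2 control (squares) root arrays, on a log axis with the background as a dashed line. AT1G67865 was highest in control roots, at 382 and 547, and AT2G29310 was the lowest of the 8 in control roots, at 74.7 and 49.5.

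The response of shoots minus that of roots was tested as a term of the same limma fit. It was called for 0 members, where 0.0117 percent of all probe sets were called. Without adjustment 31 members were lower and 3 higher at p under 0.05 by limma, against 692 lower and 822 higher of all 17059 probe sets. The median of this difference was -0.76 for the members and -0.03 for all probe sets, but the root side of it was not above background for 83 members. AT2G29310 was above background on 3 of the 4 root arrays, and for it the difference was -2.06 (adjusted p 0.238 by limma).

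The WT arrays of the 21-day experiment are those that chose the set, for high shoot and low root signals, so the comparison of hma2 hma4 with WT is given without a test. Lower shoot and higher root signals in hma2 hma4 cannot be told apart from that selection. The members made up 2.48 and 2.32 percent of the array signal in hma2 hma4 shoots, against 2.45 and 2.45 percent in WT shoots. The ratio of mean signals, hma2 hma4 over WT, had a median of 0.965 in shoots, with 79 members below 1 and 45 above. It ranged between 0.373 and 2.09. The median log2 difference, hma2 hma4 minus WT shoots, was -0.06 for the members and -0.04 for all 22746 probe sets. The lowest ratio with a gene name was that of AT1G07050, with 1352 and 1312 in hma2 hma4 shoots, against 3077 and 2377 in WT shoots, which did not overlap. AT2G29310 had 826 and 909 in hma2 hma4 shoots, against 1139.9 and 1442 in WT shoots, and AT1G66100, the thionin that fell under -Zn, had 1937 and 1297 in hma2 hma4 shoots, against 2263 and 2100.2 in WT shoots. On the higher side, AT3G04210, a protein of the TIR-NBS disease resistance type, had 2379 and 2525 in hma2 hma4 shoots, against 1604 and 1772 in WT shoots.

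By role, the median ratio of hma2 hma4 over WT shoots was 0.867 for metabolic enzymes and transporters and 0.928 for the NDH group. It was 1.02 for cell-surface and secreted proteins, 1.07 for defence proteins and receptors and 0.977 for the other genes. The ratios overlapped, running between 0.672 and 1.12 for enzymes and transporters and between 0.741 and 1.45 for defence. These medians rest on WT arrays that chose the set and on roles sorted after values were seen, and were not tested. In hma2 hma4 roots the members were low, with 30 and 24 above background on the 2 arrays, against 21 and 16 in WT roots. The highest named member there was AT1G07440, with 96.3 and 66.5 in hma2 hma4 roots and 22.7 and 39.3 in WT roots.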

How the data were processed

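The deposited values are log2 signals, which per the submitters' processing notes the authors computed with MAS5. The version is not given in the sources used here. From the values, each of the 16 arrays was scaled to a mean of 500 after trimming 2 percent at either end, and 2413 values are exactly 0 on the log2 scale. A table scaled this way cannot show a change in total RNA. No scanner files were used here.

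Signals in the text are linear signals. For the tests, 8 units (the 10th percentile, 7.98) were added before log2 was taken, so log2 changes understate the change of dim genes. The 64 control probe sets were left out, and probe sets with a mean signal above the 25th percentile were kept, which left 17059. The fit used limma 3.58.1 under R 4.3.3 (lmFit on group means, eBayes with trend), with Benjamini-Hochberg adjustment over all probe sets tested and a threshold of 0.05. The 8 arrays of the 7-week experiment shared 1 fit, and the 4 hma2 hma4 arrays were fitted alone. The procedure was run on simulated data to see whether changes of known sign came back with that sign. The simulated noise was smaller than that of the typical member, so this says nothing about how many changes of members could be found. A fold given as "at least" is the shoot geometric mean over the background of 52.2, the highest signal of 3 Trpn probe sets. The 2 arrays per group limit the precision of every value.

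In the platform annotation 13513 probe sets have 1 gene, 503 have several and 8794 do not appear. RefSeq TAIR10.1 was used for names and neighbours only. The members and all lists were chosen with earlier results of these data known. Named members are those with 1 gene that were brightest in 21-day WT shoots (10), called or with the largest change without overlap in -Zn shoots (10 each way), highest in 7-week roots (8), lowest in 7-week shoots (8), on a list, at either end of the hma2 hma4 over WT ratio (6 each way, and 4 in roots), or nearest a threshold (3). Without overlap in -Zn shoots, only 8 named members rose, so all of these were taken, and 38 fell. Other members, such as examples of a role, were named after their values were seen. Fixed lists without a member were used only where the text gives them. The labels do not say whether replicate numbers pair samples, and the fit did not pair them. Deviations of same-numbered samples correlated between -0.042 and 0.071, which does not settle the question. The alternatives were 2 other normalizations, 2 added constants, 2 filters, 2 variance models, fewer or more samples in the fit, the replicate number as a block, each array left out, and 2 other pairs of thresholds.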

Additional observations from a re-analysis of the deposited data

How the results depend on the processing

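The count of 2 members called lower in -Zn shoots, beside 26 of all probe sets, was 1 with quantile normalization and with eBayes without trend. All probe sets called lower in these 2 settings were 11 and 16. The member count was 0 with an added constant of 1, with no filter, with array weights and with only the groups compared. All probe sets called lower there were 20, 5, 1 and 2, so a count of 0 says little about the members. The member count also changed with each shoot array left out. Such a fit has 1 array in a group, so its counts are not given. With an added constant of 58, 8 members were called lower and 1 higher, against 70 lower and 263 higher of all probe sets. The looser thresholds gave 2 called lower and 2 called higher among 476 members tested, and the stricter ones gave 2 lower and 0 higher among 24. Of all 17059 probe sets tested, 26 were called lower and 131 higher. With the replicate block, which no label supports as a pairing, 3 members were called lower and 0 higher, against 43 lower and 238 higher of all probe sets. The cause of these shifts was not tested. The median change in -Zn shoots stayed negative in every setting, between -0.93 and -0.52. The median of shoots minus roots was 6.19 in control plants, 5.68 in -Zn plants and 6.25 in hma2 hma4 with median centring, which moved the median of all probe sets in control plants to 0.07. It was 6.41, 5.79 and 6.47 with an added constant of 1, and 4.29, 3.78 and 4.54 with 58. A filter at the 50th percentile gave 5.42 in -Zn plants over 109 members. The median of hma2 hma4 minus WT shoots was -0.06, against -0.04 for all probe sets. With median centring it was -0.00596, against 0.01 for all probe sets. Thresholds of 500 and 120 gave 481 members, and 2000 and 30 gave 24. For the 19 single members followed (the 18 named ones with the largest changes, and 253971_at), 244 values under the alternatives kept sign and call, 16 lost the call, 4 gained it and 0 turned sign. Over all 124 members, 24 took both signs over the alternatives, and 0 of these were called; both probe sets of AT1G51110 were among them, at -2.09 and -1.58 without control replicate 2, against 0.02 and 0.66 without control replicate 1.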

Other observations

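Members without a gene name held some of the widest differences in -Zn shoots, and they are given as values picked after they were seen. Probe set 247814_at had 286 and 545 in -Zn shoots, against 2380.1 and 1620.2 in control shoots (log2 change -2.29, adjusted p 0.0788 by limma). Probe set 259561_at went the other way, with 5552 and 3162 in -Zn shoots, against 942 and 1698 in control shoots (log2 change 1.72, adjusted p 0.0729 by limma). Neither overlapped between the groups, and in 21-day seedlings 259561_at had 3648 and 4157 in hma2 hma4 shoots and 3241 and 2369 in WT shoots.

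A few named members had replicate arrays that were far apart. AT4G29030, a glycine-rich protein, had 974 and 649.9 in -Zn shoots and 222 and 2017 in control shoots. AT5G55450, of the lipid transfer protein-like family, had 7099 and 10351 in -Zn shoots and 2619 and 8733 in control shoots, and 1586 and 2714 in hma2 hma4 shoots and 2400.2 and 1645 in WT shoots. Over the 124 members, log2 signals of the 2 arrays correlated with r = 0.921 in -Zn shoots and 0.877 in control shoots, which is a description across probe sets and no test.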
